A study of Mus musculus with 5 samples.

Results

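A small set of mouse ovarian granulosa cells was defined by co-detection of Pamr1 with at least 2 of its 5 partner genes Bicc1, Angpt2, Tmem100, Rapgef5 and Rcan2. A cell was a member if it had at least 1000 detected genes, under 15% of its unique molecular identifiers (UMIs, each standing for 1 captured mRNA molecule) on mitochondrial genes, at least 1 UMI each of Pamr1, Inha and Nr5a2, at least 1 UMI of at least 2 partner genes, and 0 UMIs of Ube2c, Dcn and Rgs5. Of 48163 cells in the 5 libraries, 39967 passed the limits on genes and mitochondrial share, 10898 of those passed the granulosa gate (Inha and Nr5a2 present, Ube2c, Dcn and Rgs5 absent), and 213 were members. The other 10685 gated cells are called other granulosa cells. Because the 11 genes of the rule chose the members, their values are given as a description and carry no test.

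The cells came from ovaries of untreated C57BL6/J mice aged 2, 3, 4, 5 and 6 wk, with 1 library for each age. Ovaries were dissociated for about 20 min at 37°C in 0.25% trypsin, and live cells were sorted by exclusion of SYTOX Orange before droplet capture with the Chromium 3′ v3.1 chemistry, which counts the 3′ ends of transcripts. The number of animals behind each library was not given in the sources used here, so values at different ages come from single libraries and carry counting error only. The libraries held 124938004, 93438618, 117666094, 107071492 and 144609431 UMIs in order of age.

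Granulosa cells surround the oocyte, make inhibin, activin and anti-Müllerian hormone, and convert androgens made by neighbouring theca cells into estrogen. Most follicles never ovulate but undergo atresia, a programmed breakdown in which granulosa cells die or are cleared. The study uses the word remodeling for granulosa cells of wave 1 follicles, the first to grow after birth, around the time of their atresia. Pamr1 encodes a secreted protein with peptidase-like domains, Bicc1 an RNA-binding protein, Angpt2 a ligand of the endothelial receptor TIE2, Tmem100 a membrane protein linked to BMP9 and ALK1 signalling in vessels, Rapgef5 an exchange factor for RAP GTPases, and Rcan2 a regulator of the phosphatase calcineurin.

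The members carried low but joint counts of the defining genes. Pamr1 reached 1 UMI in 103 members and 2 or more in 110, with a highest count of 12. Among partner genes, Bicc1 was detected in 73.7% of members, Tmem100 in 65.3%, Angpt2 in 56.3%, Rapgef5 in 39.4% and Rcan2 in 26.8%. Most members, 116 of 213, had exactly 2 partner genes, 68 had 3, 24 had 4 and 5 had all 5. Inha was present by rule but at 1299.7 CPM (UMIs of the gene per 1000000 UMIs of the group) over all members against 3825 CPM in other granulosa cells, and Nr5a2, the nuclear receptor LRH-1, was at 257 against 474 CPM.

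Detection of Pamr1 rose with the number of partner genes detected. A Pamr1 UMI was found in 1.97% of gated cells with no partner gene, 8.97% with 1, 27.5% with 2, 47.9% with 3 and 63.2% with 4, while 5 of 8 cells with all 5 partners had it. In the 4, 5 and 6 wk libraries alone it was found in 3.01% with no partner gene, 11.1% with 1, 28.9% with 2, 48.9% with 3 and 63.2% with 4. Cells just outside the rule were 157 gated cells with Pamr1 and 1 partner gene and 397 with at least 2 partner genes and no Pamr1. Deeper cells detect more of any gene, and these shares were not corrected for depth. For the level of stray signal, 3.32% of 361 blood cells (a UMI of both Ptprc and Laptm5) had a Pamr1 UMI, and 3.04% of other granulosa cells did. Over the 4, 5 and 6 wk libraries alone the shares were 3.19% and 4.45%. Median depth of those blood cells was 5411 to 9818 UMIs by library, against 12066 to 16773 in other granulosa cells. The partner genes were not particular to granulosa cells: Bicc1 was detected in 83.5% of cells with 5 or more UMIs of the stromal gene Dcn, and Tmem100 in 79.1% of cells with 5 or more UMIs of the pericyte gene Rgs5.

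**Figure D1:**
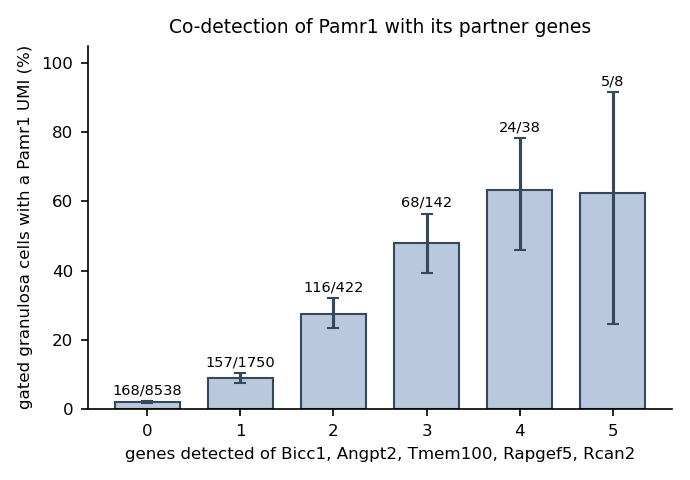
Share of gated granulosa cells with a Pamr1 UMI (vertical axis, %) by how many of the 5 partner genes were detected in the same cell (horizontal axis), all 5 libraries together. Bars are shares, error bars exact 95% binomial intervals, and the numbers above are cells with Pamr1 over all cells, from 1.97% with no partner to 63.2% with 4.

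Members were found almost entirely in the 3 older libraries. There were 4 members among 1880 gated cells at 2 wk, 3 of 2274 at 3 wk, 83 of 2986 at 4 wk, 61 of 1571 at 5 wk and 62 of 2187 at 6 wk. As shares these were 0.213%, 0.132%, 2.78%, 3.88% and 2.83%, with exact (Clopper-Pearson) 95% intervals of 0.0580 to 0.544, 0.0272 to 0.385, 2.22 to 3.43, 2.98 to 4.96 and 2.18 to 3.62%. The intervals of the 2 and 3 wk libraries lay below those of the 3 older ones, and the 4, 5 and 6 wk intervals overlapped each other. Over 4 to 6 wk the share was 18.1 times that over 2 and 3 wk (3.05% against 0.169%). With 1 library for each age this is a difference between libraries: no age has a replicate, and the grouping into older and younger libraries was made after the shares were seen and was not tested.

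The size of that step depended on the gate. Without the limits on Ube2c, Dcn and Rgs5, 56 cells at 2 wk and 36 at 3 wk met the rest of the rule, and the ratio of older to younger libraries was 2.38. When every cell was thinned to 10000 UMIs and shallower cells were left out, the shares were 0.0534, 0.165, 1.86, 1.64 and 1.24%, and the ratio was 14.5. Cell Ranger 3.1.0 was named for the 2, 3 and 4 wk libraries and 6.0.1 for the 5 and 6 wk libraries; the step from 3 to 4 wk fell within 1 version, whereas differences between 4 and 5 wk cannot be told apart from the version.

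**Figure D2:**
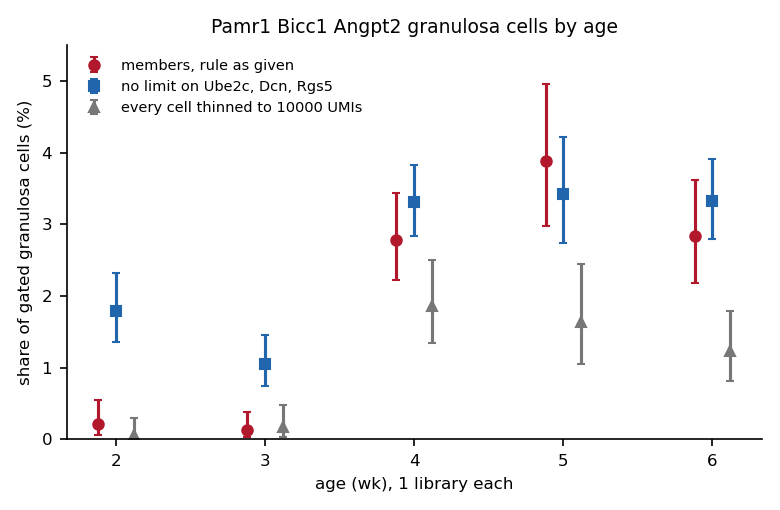
Members as a share of gated granulosa cells (vertical axis, %) against age in weeks (horizontal axis, 1 library each), under the rule as given (circles), without the limits on Ube2c, Dcn and Rgs5 (squares) and after thinning each cell to 10000 UMIs (triangles). Error bars are exact 95% binomial intervals for counting error. The circles stay at or below 0.213% at 2 and 3 wk and reach 2.78 to 3.88% from 4 wk.

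The 7 members of the 2 and 3 wk libraries stood apart from the others. All 4 at 2 wk and 2 of 3 at 3 wk had a UMI of at least 1 of 11 markers of stromal, smooth muscle or endothelial cells (Myh11, Actg2, Cnn1, Lum, Mfap4, Col1a1, Col1a2, Pdgfra, Pecam1, Cdh5 and Flt1), and 2 of the 4 at 2 wk were called doublets by Scrublet. Among other granulosa cells 53.6% at 2 wk and 29.5% at 3 wk had such a marker too. At 4 to 6 wk the share with one was 26.2% of 206 members and 26.6% of 6538 other granulosa cells, and 3 of the 206 were called doublets. The 2 and 3 wk members held 70221 and 36378 UMIs in sum, against 1104069, 914239 and 1018015 at 4, 5 and 6 wk, so 3 UMIs of a gene correspond to 42.7 CPM at 2 wk and 82.5 CPM at 3 wk. The total counts of called genes, with some list counts and single values, are therefore also given from the 4, 5 and 6 wk libraries alone, a setting chosen after seeing the data. Libraries shared 273 cell barcodes in pairs, of which 3 belonged to a member.

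Depth did not separate members from their neighbours in a constant direction. Their median UMI counts were 18662, 12554, 11549, 15015 and 15835 by age against 16773, 12701, 12066, 16014 and 16516 in other granulosa cells (exact paired permutation test over 5 libraries, two-sided p = 0.9375). The median mitochondrial share was lower in members in 5 of 5 libraries, 6.28% ± 1.12 against 7.37% ± 1.09 (mean of library medians, SD, n = 5; exact paired permutation p = 0.0625, the smallest this design allows).

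UMIs were summed by library and cell group and members were compared with other granulosa cells by edgeR's quasi-likelihood test with the library as a block. A gene was called at a Benjamini-Hochberg adjusted p under 0.05 and a change of at least 1.5-fold. Of 12577 genes tested, 901 were higher in members (7.16%) and 1075 lower (8.55%). From the 4, 5 and 6 wk libraries alone 936 of 12990 genes were higher and 1004 lower; 787 of the higher and 902 of the lower genes were called both ways, which is 87.3% and 83.9% of the calls from 5 libraries. By level alone, 7.59% of the genes tested had a higher CPM in members in all 5 libraries and 14.6% a lower one. All genes were measured in the cells that the rule had picked, so a called gene is one that went along with the rule's genes; the comparison does not show a cell lineage.

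Genes were named by size of change among called genes with the same sign in all 5 libraries and a mean of at least 30 CPM in the higher group. Among those with the largest changes were 5 that encode actin or proteins of actin filaments and adhesions, grouped after their values were seen. No list of such genes was fixed beforehand, and the grouping was not tested, so the 5 are described gene by gene. Cald1, which encodes the actin-binding protein caldesmon, was at 684, 907, 2255, 1629 and 2524 CPM in members at 2, 3, 4, 5 and 6 wk and at 55.9, 49.5, 585, 423 and 339 CPM in other granulosa cells. The groups did not overlap, and the lowest member value lay above the highest of the others. The fold change was 5.93 (log2 2.57 ± 0.19 SE, adjusted p = 3.6e-17).

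Tagln, encoding the actin-crosslinking protein transgelin, was at 755, 1567, 477, 345 and 220 CPM in members against 16.1, 39.1, 109, 61.7 and 66.9 CPM. Members were higher in each library, most of all at 2 and 3 wk, where they were few. The log2 change of 2.87 ± 0.23 (adjusted p = 4.1e-15) fell to 2.07 ± 0.11 in the 4, 5 and 6 wk libraries. Acta2, smooth muscle actin, behaved alike, with a log2 change of 2.54 ± 0.24 from 5 libraries and 1.70 ± 0.10 from the 3 older ones.

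Sorbs2, a scaffold protein of actin-based adhesions, was at 114, 192, 239, 369 and 279 CPM in members against 24.9, 19.9, 43.5, 64.2 and 32.3 CPM (log2 2.60 ± 0.14, adjusted p = 1.3e-21). Its groups did not overlap, and its change was no smaller at 4 to 6 wk (2.65 ± 0.12). Palld, the actin-bundling protein palladin, was higher by 2.44 ± 0.28 log2 units.

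Tagln, Acta2 and Cald1 are also strong in smooth muscle, so the defining smooth muscle genes were read beside them. Myh11, Actg2 and Cnn1, together with Myocd, were not called. At 4 to 6 wk Myh11 was detected in 5.34% of members and 3.55% of other granulosa cells, Actg2 in 2.43% and 2.72%, and Cnn1 in 1.94% and 1.51%. At 5 wk Myh11 and Actg2 were at 0 UMIs in members, while Tagln was at 345 CPM. At 6 wk, however, Actg2 stood at 27.5 CPM in members (exact 95% interval 18.3 to 39.8 CPM), above the interval of other granulosa cells (6.18 to 7.91 CPM), and Myh11 at 20.6 CPM (12.8 to 31.5 CPM) against an interval of 9.96 to 12.1 CPM. In that library 3.23% of members, 2 of 62 cells, and 1.04% of other granulosa cells held a UMI of at least 2 of Myh11, Actg2 and Cnn1. A setting added after seeing the data left out every cell with 1 of the 11 markers of other cell types. It kept 0 members at 2 wk and 1 at 3 wk, against 58, 52 and 42 at 4, 5 and 6 wk. By the edgeR test it gave Cald1 at 2.18 ± 0.30, Tagln at 2.31 ± 0.15 and Acta2 at 1.69 ± 0.15 log2 units (adjusted p = 2.7e-11, 2.2e-51 and 1.7e-27). At 2 and 3 wk Myh11 stood at 71.2 and 137 CPM in the 7 members, so those libraries did carry smooth muscle transcripts, and the summed level of the 6 smooth muscle markers there was 2150 and 3024 CPM, against 978, 607 and 815 CPM at 4, 5 and 6 wk and 62.1 to 305 CPM in other granulosa cells.

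**Figure D3:**
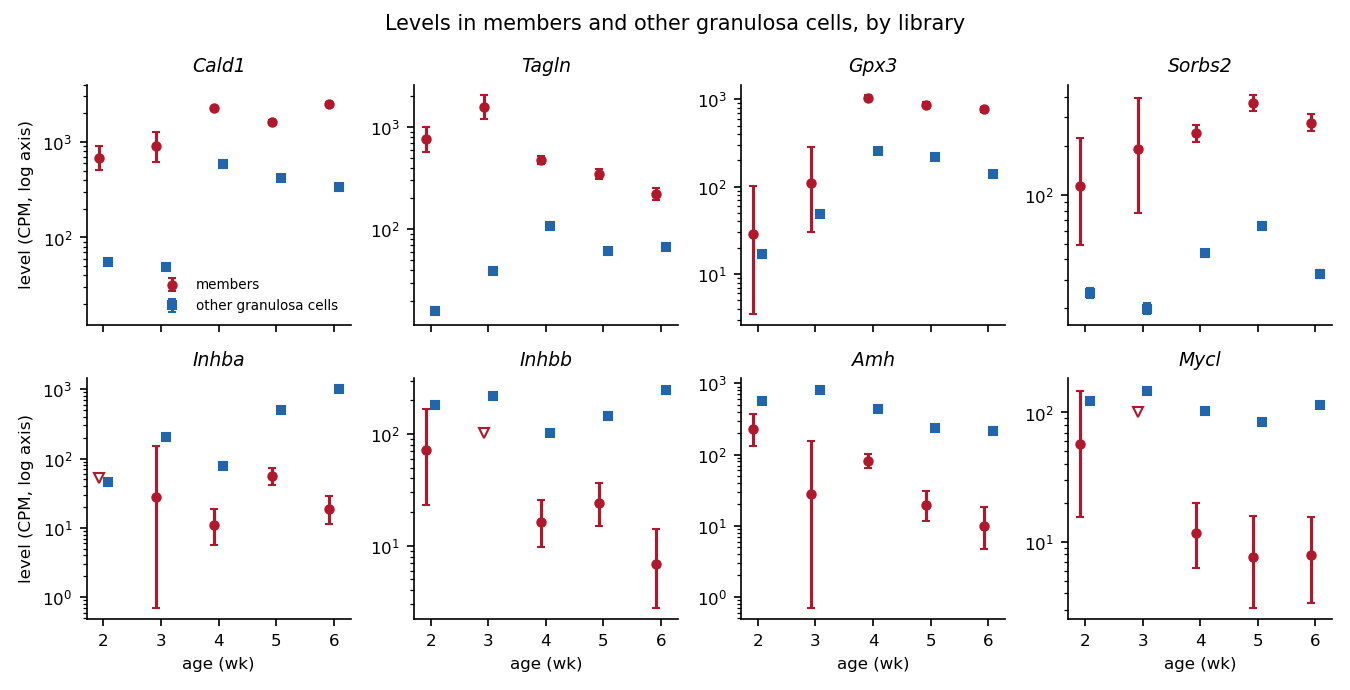
Level (CPM of summed UMIs, log axis) of 4 genes higher and 4 genes lower in members against age in weeks, for members (circles) and other granulosa cells (squares), 1 library for each age. Error bars are exact 95% Poisson intervals for counting error, and open triangles mark the upper limit where members had 0 UMIs. Member intervals are wide at 2 and 3 wk, with 4 and 3 cells, and narrow from 4 wk, where each of the 8 genes is separated from the other granulosa cells.

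Other genes among the highest were of mixed function. Pcdh9, a protocadherin of cell adhesion, was at 42.7, 82.5, 127, 116 and 83.5 CPM in members against 5.59, 9.83, 20.8, 16.6 and 9.87 CPM (log2 2.75 ± 0.17, adjusted p = 2.6e-20). Galnt15, an enzyme that starts O-linked glycosylation, was higher by 2.79 ± 0.23, Maf, a bZIP transcription factor, by 2.53 ± 0.16, Ogn, the small matrix proteoglycan osteoglycin, by 2.69 ± 0.23, and Pde5a, the cyclic GMP phosphodiesterase, by 2.30 ± 0.31. Rrad, a small GTPase, was higher by 2.39 ± 0.29.

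Penk (proenkephalin) and Stc1 (stanniocalcin) were called with and without the sparse young libraries, with smaller changes without them. Stc1 was at 42.7, 412, 16.3, 51.4 and 8.84 CPM in members against 0.906 to 7.64 CPM, and its log2 change of 2.61 ± 0.42 became 1.76 ± 0.33 in the 3 older libraries. Penk went from 2.94 ± 0.42 to 2.46 ± 0.51.

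Gpx3, a secreted glutathione peroxidase, was at 28.5, 110, 1048, 868 and 772 CPM in members and 17.1, 48.3, 257, 217 and 141 CPM in other granulosa cells. Members were above the others at 4, 5 and 6 wk, and at 2 and 3 wk, with 2 and 4 member UMIs, a difference was not detectable at this depth (log2 1.97 ± 0.18, adjusted p = 1.1e-13).

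Promoter windows are shown for the genes whose start regions held a match to TGANTCA, the core of sites bound by AP-1 (FOS and JUN) factors, because the immediate-early list below includes those factors. The windows run from 250 bases before to 50 after an annotated RefSeq start (GRCm38.p6), and 18 of 29 genes looked up, the named highest and lowest genes and the 6 genes Pamr1, Bicc1, Angpt2, Tmem100, Rapgef5 and Rcan2, had at least 1 window. The Galnt15 window is chr14:32028853-32029152 on the plus strand, that of Cald1 chr6:34709194-34709493 on the plus strand, that of Palld chr8:61591090-61591389 on the minus strand, that of Cxcl10, which was lower in members, chr5:92348840-92349139 on the minus strand and that of Rcan2 chr17:43952749-43953048 on the plus strand. Capitals mark the match.
Galnt15: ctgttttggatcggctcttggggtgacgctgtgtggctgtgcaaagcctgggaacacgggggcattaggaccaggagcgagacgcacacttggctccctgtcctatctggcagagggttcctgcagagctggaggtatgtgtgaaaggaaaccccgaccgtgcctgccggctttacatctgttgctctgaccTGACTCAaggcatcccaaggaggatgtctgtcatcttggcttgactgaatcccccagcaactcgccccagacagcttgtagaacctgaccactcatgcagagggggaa
Cald1: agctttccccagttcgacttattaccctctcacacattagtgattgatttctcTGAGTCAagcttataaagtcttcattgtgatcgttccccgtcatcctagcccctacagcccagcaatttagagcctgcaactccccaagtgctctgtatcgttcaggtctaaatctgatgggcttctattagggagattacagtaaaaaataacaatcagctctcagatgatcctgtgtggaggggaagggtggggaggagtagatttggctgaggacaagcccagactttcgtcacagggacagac
Palld: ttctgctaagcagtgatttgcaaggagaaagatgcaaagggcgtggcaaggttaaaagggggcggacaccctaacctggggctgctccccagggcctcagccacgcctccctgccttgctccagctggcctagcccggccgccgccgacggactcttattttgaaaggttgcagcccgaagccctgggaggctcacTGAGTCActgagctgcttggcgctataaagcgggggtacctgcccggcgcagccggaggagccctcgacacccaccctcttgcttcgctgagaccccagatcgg
Cxcl10: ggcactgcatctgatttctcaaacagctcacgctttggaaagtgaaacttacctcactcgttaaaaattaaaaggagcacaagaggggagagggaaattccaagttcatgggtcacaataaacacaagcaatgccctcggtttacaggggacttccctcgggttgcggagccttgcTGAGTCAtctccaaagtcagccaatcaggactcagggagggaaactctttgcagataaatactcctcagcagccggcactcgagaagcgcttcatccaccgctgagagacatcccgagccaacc
Rcan2: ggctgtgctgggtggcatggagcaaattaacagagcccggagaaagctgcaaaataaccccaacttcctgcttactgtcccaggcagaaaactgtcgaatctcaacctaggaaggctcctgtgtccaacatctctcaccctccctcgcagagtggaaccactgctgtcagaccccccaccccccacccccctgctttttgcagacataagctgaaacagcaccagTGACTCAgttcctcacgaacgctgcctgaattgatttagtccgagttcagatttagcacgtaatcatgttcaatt

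The matches began 58, 197, 54, 74 and 25 bases before the annotated start. Cald1 had 2 windows and Palld and Rcan2 had 3 each, and only the window shown held the match. Among the genes highest in members, 3 of 14 windows (3 of 8 genes with a window) held TGANTCA on either strand. Among the lowest, 1 of 11 windows (1 of 8 genes, Cxcl10) did. Over all 32851 mouse windows the share was 7.81%, and it was 8.97% by gene. The other motifs searched on both strands were the CArG box of serum response factor (1.63% of all windows), AAGGTCA (4.72%) and TGACGTCA (1.79%), which shares its outer letters with TGANTCA but is 1 base longer; none of the 3 was found in the windows of these genes. A match describes the sequence only, with 8 genes a side.

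The lowest genes by the naming rule included subunits of activin and inhibin. Inhba, the activin and inhibin beta A subunit, was at 0, 27.5, 10.9, 55.8 and 18.7 CPM in members at 2 to 6 wk and at 46.6, 204, 77.9, 501 and 991 CPM in other granulosa cells. The level in other granulosa cells was highest at 5 and 6 wk. Members were lower from 3 wk on, and at 2 wk, with 0 UMIs, a difference was not detectable at this depth. The change was 16.8-fold lower (log2 -4.07 ± 0.26, adjusted p = 5.4e-19).

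Inhbb, the beta B subunit, was at 71.2, 0, 16.3, 24.1 and 6.88 CPM in members against 182, 219, 101, 146 and 247 CPM (log2 -3.29 ± 0.24, adjusted p = 4e-17). Amh, encoding anti-Müllerian hormone of small growing follicles, was at 228, 27.5, 81.5, 19.7 and 9.82 CPM against 566, 820, 439, 236 and 214 CPM (log2 -3.09 ± 0.22, adjusted p = 2.4e-17). Groups overlapped for Amh only through the 2 wk members, and the members of each library lay below its other granulosa cells for both genes.

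Mycl, a MYC family transcription factor, was at 57.0, 0, 11.8, 7.66 and 7.86 CPM against 123, 147, 103, 84.9 and 115 CPM (log2 -3.38 ± 0.23, adjusted p = 8.9e-18). The values of the 2 groups did not overlap, though the counting interval of the 2 wk members, with 4 UMIs, held the level of the others. Vcan, the matrix proteoglycan versican, was lower by -3.12 ± 0.27, Defb19, a defensin, by -3.13 ± 0.27, Fndc5 by -3.11 ± 0.25 and Gstm6 by -3.29 ± 0.53. Cyp11a1, the cholesterol side-chain cleavage enzyme, fell by 5.26 on the log2 scale, and the chemokine gene Cxcl10 was at -3.93 ± 0.42. For Cyp11a1 the other granulosa cells of the 5 wk library stood out at 113 CPM, against 5.68 to 26.7 CPM in the other 4 libraries, and the 8 theca markers summed to 338 CPM in those 5 wk cells, against 33.3 to 169 CPM at other ages; its part in the change was not tested.

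Several granulosa identity genes were not called. Foxl2, the transcription factor that maintains granulosa fate, was at 427, 192, 104, 163 and 156 CPM in members and 419, 177, 89.5, 148 and 190 CPM in other granulosa cells, a log2 difference of -0.09 ± 0.15 (adjusted p = 0.72). The 2 groups tracked each other across the 5 libraries. Amhr2, the receptor of AMH (-0.22 ± 0.16), Wt1 (-0.02 ± 0.17), Nr5a1 (-0.26 ± 0.22) and Bmpr1b (-0.05 ± 0.14) were likewise not called. Nr0b1, encoding the repressor DAX1, was higher by 0.71 ± 0.24 (adjusted p = 0.023).

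Of 18 granulosa identity genes tested, 8 were lower and 1 higher, with a median log2 change of -0.54 against -0.05 over all genes tested. Serpine2, a protease inhibitor, fell by 1.56, Kctd14 by 1.77 and Fst, the activin-binding protein follistatin, by 2.32 on the log2 scale. Of 14 genes of growing follicles, 9 were lower and none higher by this edgeR test (median -1.20), among them Slc18a2 (-2.79 ± 0.20) and Igfbp5 (-0.62 ± 0.16), which fell short of 1.5-fold and was not called in the 3 older libraries (-0.58 ± 0.11). Of 16 antral genes 14 were tested, 12 were lower and 1 higher (median -2.17), including Nap1l5 (-3.00 ± 0.22) and Hsd17b1 (-2.32 ± 0.19); the higher gene was Pik3ip1, an inhibitor of PI3 kinase.

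Of 25 steroid synthesis and hormone receptor genes tested, 11 were lower, 4 were higher and 10 were not called (median -0.60). Hsd3b1 was at 10.9, 15.3 and 88.4 CPM in members at 4, 5 and 6 wk against 207, 433 and 735 CPM. At 2 wk it was higher in members, at 1339 against 692 CPM, so the change of -2.69 ± 0.33 from 5 libraries became -3.72 ± 0.19 in the 3 older ones. Fdx1, an electron donor of steroidogenic enzymes, fell by 0.60 on the log2 scale and the prolactin receptor gene Prlr was at -2.36 ± 0.32, whereas Ghr, the growth hormone receptor gene, was higher by 1.60 ± 0.16. Fshr, the receptor gene for follicle-stimulating hormone (-2.48 ± 0.56), and the aromatase gene Cyp19a1 (-2.82 ± 0.60) were lower too, from low levels in both groups.

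Genes that the study named for remodeling granulosa cells were chosen on these samples, so their direction is not independent evidence and does not test the name remodeling. Of the 6, 4 were higher (Apoe 0.95 ± 0.17, Bmp2 1.52 ± 0.16, Cxcl1 0.65 ± 0.15 and Cyp1b1 0.89 ± 0.15 log2 units) and Atf3 and Sox4 were not called (0.42 ± 0.16 and 0.49 ± 0.19). Sox4 was called in the 3 older libraries (1.06 ± 0.09), where it was at 3267, 2206 and 3297 CPM in members against 1776, 1123 and 1206 CPM. Of 13 genes that the study compared between follicle waves, 4 were higher, namely Cald1, Grb14 (1.21 ± 0.19), Mmp11 (1.39 ± 0.16) and Ghr, and 9 were lower, with Igfbp5, Wnt4 and Itga6 among them. In the 3 older libraries 8 were lower, without Igfbp5.

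The matrix and protease list, the longest, had the most genes called higher, with 20 of 44 tested higher and 5 lower (median 0.79). By share it was not first: of 6 genes that define other remodeling types of granulosa cells, described below, 5 were higher (median 1.13). The basement membrane collagens Col4a1 and Col4a2 were higher by 1.30 ± 0.17 and 1.37 ± 0.19, the collagen-binding protein gene Sparc by 1.17 ± 0.17, the stromelysin-type protease gene Mmp11 by 1.39 ± 0.16, the membrane protease gene Mmp14 by 0.71 ± 0.15 and the inhibitor gene Timp2 by 1.14 ± 0.14. Some of the group came from the 7 young members: Col1a2 was at 1182 and 522 CPM at 2 and 3 wk and at 29.0, 3.28 and 41.3 CPM later, against 6.29 to 28.3 CPM in other granulosa cells. In the 3 older libraries 15 of 45 matrix genes were higher and 5 lower (median 0.50), and Col1a2 (0.21 ± 0.22) was not called while Col4a1 (1.19 ± 0.18) and Mmp14 (0.71 ± 0.12) were.

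BMP and ALK1 genes were higher in 8 of 26 tested and lower in none by this edgeR test (median 0.41). In the 3 older libraries 8 of 27 were higher and 1 lower (median 0.35), and without cells holding 1 of the 11 markers 7 of 25 were higher and 1 lower. The lower gene was Grem1, which encodes the BMP inhibitor gremlin. It was at 0 UMIs in the members of all 5 libraries and too low to test over them. Id1, a direct target of BMP signalling, was at 157, 110, 228, 386 and 244 CPM in members against 89.0, 84.9, 83.8, 165 and 116 CPM (log2 1.08 ± 0.15, adjusted p = 3.9e-08). Members were higher at 4, 5 and 6 wk, and the counting intervals of the 2 and 3 wk members held the level of the others. The receptor gene Bmpr2 was higher by 0.72 ± 0.16, Id3 by 0.61 ± 0.15 and Id2 by 0.67 ± 0.19, but Id2 was not called in the 3 older libraries (0.35 ± 0.12). The receptor genes Acvrl1 and Eng, which encode ALK1 and endoglin, were near 0 in members and not called (-0.37 ± 0.75 and -0.15 ± 0.59).

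Of 37 angiogenic genes 27 were tested, 7 were higher and 1 lower (median 0.29). In the 3 older libraries 30 were tested, with 6 higher, 2 lower and a median of 0.07, and without cells holding 1 of the 11 markers of other cell types 24 were tested, with 5 higher, 1 lower and a median of 0.0078. Thbs1, the angiogenesis inhibitor thrombospondin, was at 242, 935, 717, 1007 and 984 CPM in members against 283, 258, 296, 370 and 332 CPM (log2 1.14 ± 0.17, adjusted p = 4.8e-07), higher in 4 of 5 libraries. Nrp2, a co-receptor of VEGF and semaphorins, was higher by 1.77 ± 0.30 and Sema3c by 0.72 ± 0.16. Vegfa, the main vascular growth factor, was the lower gene, at 28.5, 0, 9.06, 16.4 and 17.7 CPM against 67.4, 45.1, 22.7, 46.6 and 37.2 CPM (log2 -1.39 ± 0.23). Tek, which encodes the receptor of ANGPT2, and Angpt1 were too low to test. Ednrb was called over 5 libraries (2.27 ± 0.63) but not in the 3 older ones (0.50 ± 0.59).

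Growth control genes moved in both directions. Cell cycle genes were lower in 15 of 27 and higher in 3 (median -1.20), with Ccnd2 at -1.80 ± 0.22, Mcm6 at -0.79 ± 0.17 and Mcm7 at -0.99 ± 0.19, while the inhibitor gene Cdkn1b was at 0.60 ± 0.15. The rule excluded cells with Ube2c, a mitotic gene, from both groups. A UMI of Mki67 or Top2a was found in 13.6% of members and 22.1% of other granulosa cells at 4 to 6 wk. In the IGF and insulin list 8 of 20 were higher and 2 lower (median 0.43), including Grb14, Pik3ip1 and Pik3r1 (0.63 ± 0.17), which act on insulin and PI3 kinase signalling.

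Of 32 apoptosis and atresia genes tested, 7 were higher and 1 lower (median 0.16). Without cells holding 1 of the 11 markers of other cell types, 7 of 32 were higher and none lower by this edgeR test, with a median of 0.015. Casp6, an effector caspase, was higher by 0.97 ± 0.16, the stress genes Gadd45a and Gadd45b by 1.02 ± 0.16 and 1.02 ± 0.15, and Clu, encoding the chaperone clusterin, by 0.79 ± 0.18. For Casp6 members were at 175, 257 and 270 CPM at 4, 5 and 6 wk against 100, 93.0 and 103 CPM. At 2 and 3 wk members held 4 and 1 UMIs of it, too few to place them above or below the others.

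Immediate-early and heat shock genes were higher in 8 of 25 and lower in none by this edgeR test (median 0.50), but higher in 5 and lower in 1 in the 3 older libraries (median 0.33). The lower gene there was the heat shock co-chaperone gene Dnajb1 (-0.72 ± 0.10). Junb was at 1467, 852, 676, 1429 and 685 CPM in members against 320, 345, 417, 773 and 421 CPM (log2 0.93 ± 0.16). Fos (0.39 ± 0.15), Jun (-0.16 ± 0.15) and Egr1 (0.29 ± 0.15) were not called. Btg2, Klf2 and Klf4 were called over 5 libraries (0.75 ± 0.16, 0.66 ± 0.19 and 0.81 ± 0.19) but none of the 3 was in the 3 older libraries (0.45 ± 0.07, 0.23 ± 0.13 and 0.41 ± 0.17). Such genes respond to warm enzymatic dissociation, which all cells underwent, and its part in the difference was not tested.

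Glycolysis and hypoxia genes were lower in 8 of 24 and higher in 1 (median -0.36). Gapdh was at 1139, 742, 831, 663 and 585 CPM against 1071, 1133, 1248, 1071 and 1011 CPM (log2 -0.70 ± 0.15), and Pkm, Pgam1 and Pgk1 were lower by 0.65 to 0.68 log2 units. Among antioxidant and lipoprotein genes 8 of 21 were higher and 4 lower (median 0.24), with Mt1 at 0.70 ± 0.16 and Prdx1 at -0.62 ± 0.15. In the adhesion list 5 of 21 were higher and 1 lower (median 0.36). The integrin genes went both ways, Itgb8 at 2.01 ± 0.32 and Itgb3 at 1.64 ± 0.29 against Itga6 at -1.41 ± 0.18, and Cdh11 (1.63 ± 0.44) was not called in the 3 older libraries.

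Counts in the pathways that Rcan2 and Rapgef5 act in lay near the 7.16% of genes higher and 8.55% lower over all genes tested, and are not a result about these pathways. Of 18 calcineurin and NFAT genes, none was higher and 2 were lower by this edgeR test (median 0.04), Ppp3cc (-0.73 ± 0.27) and Akap12 (-1.76 ± 0.45), and Rcan1, the relative of Rcan2, was at -0.09 ± 0.27. Of 18 RAP and RAS exchange genes tested, Rap1gap2 was higher (1.68 ± 0.52) and Rapgef4 lower (-1.22 ± 0.22), with a median of -0.01. The NOTCH list had 1 higher (Maml2, 0.79 ± 0.24) and 2 lower of 13 (Hey2, -1.68 ± 0.26, and Heyl, -1.08 ± 0.29; median 0.01), the WNT list 4 higher and 6 lower of 29 (median 0.09; Lgr4 at 0.73 ± 0.19, Wnt4 at -0.98 ± 0.17 and Wnt6 at -1.50 ± 0.22), and the activin, inhibin and TGF-beta list 4 higher and 4 lower of 22 (median 0.09; Tgfb1 at 0.93 ± 0.19).

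**Figure D4:**
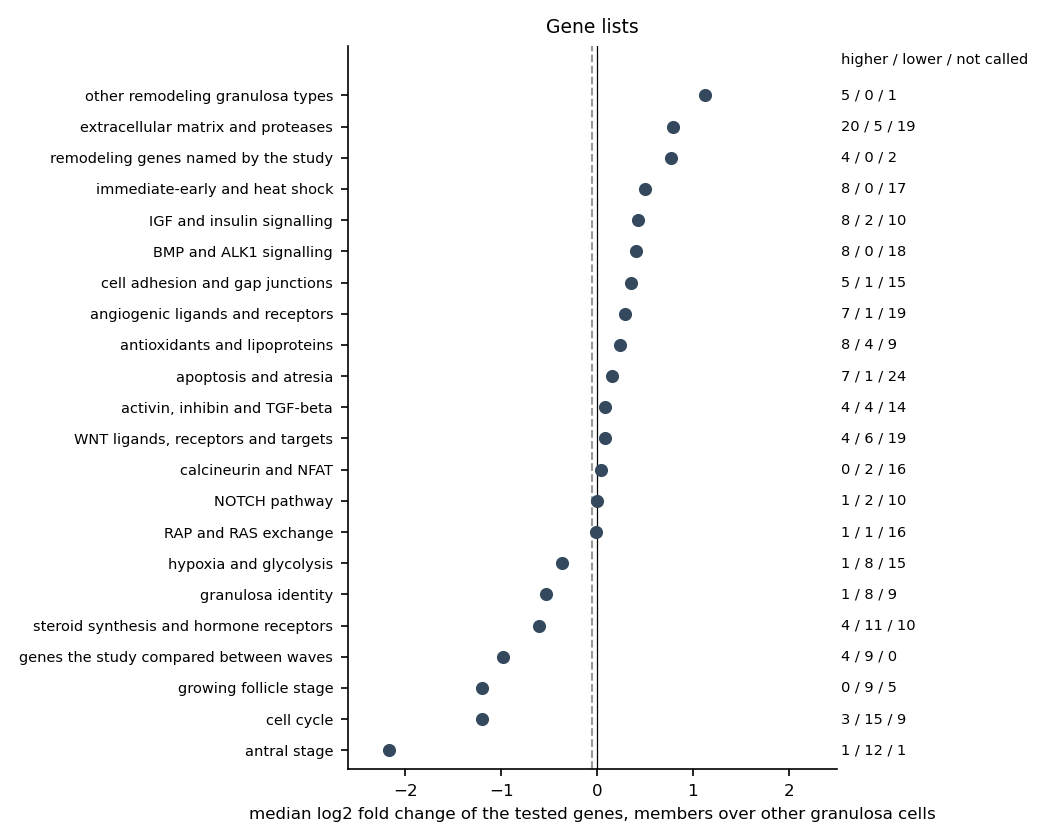
Median log2 fold change of members over other granulosa cells (horizontal axis) for the tested genes of 22 gene lists (vertical axis), with the numbers of genes called higher, called lower and not called at the right. The dashed line is the median of all 12577 genes tested (-0.05). Antral stage genes lie lowest (-2.17) and matrix genes at 0.79; the lists were chosen with earlier results known and their medians carry no test.

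Markers of other cell types were checked list by list. Stromal markers were called higher in 5 of 8 over 5 libraries and in 2 of 8, Mfap4 and Mmp2, in the 3 older libraries, and their summed level in members was 2535, 1649, 204, 40.5 and 106 CPM by age against 106, 74.1, 87.5, 30.5 and 80.0 CPM; the most abundant was Col1a2 at 2, 3 and 6 wk and Mmp2 at 4 and 5 wk. Of 7 blood endothelial markers none was called by this edgeR test in either direction, and the 6 wk members reached 114 CPM in sum against 43.4 CPM, where 1 member had at least 3 of the markers. Of 4 hematopoietic markers tested all were lower, and Ptprc and Laptm5 had 0 UMIs in all 213 members. Of 6 theca markers tested 3 were lower (Mgarp, Cyp11a1 and Cyp17a1) and none higher by this edgeR test; pericyte, lymphatic and germ cell lists had 1, 2 and 1 tested genes, none called, and epithelial markers were too low to test.

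The members overlapped other remodeling types of granulosa cells that were defined by their own genes. At 4 to 6 wk a UMI of at least 2 of Lox, Adamts5 and Ghr was found in 40.8% of members and 20.4% of other granulosa cells, a UMI of each of S100a6, Nupr1 and Agt in 14.1% and 6.58%, and a UMI of Vpreb3, an antral granulosa gene, in 23.3% and 30.5%. Of the 6 genes of the first 2 types, 5 were higher in members, with Lox at 2.18 ± 0.23 and Adamts5 at 0.81 ± 0.18, and Nupr1 was not called (0.23 ± 0.16). Each type was then compared with the members by the same test, using non-members that met only that type's rule and leaving its genes out. These comparisons share the members, so their calls are not independent of each other.

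Against 766 Lox Adamts5 Ghr cells, 356 of 8111 genes tested were higher in members (4.39%) and 255 lower (3.14%), and 7.24% had a higher and 8.2% a lower CPM in all 5 libraries. The 3 older libraries gave 393 higher and 269 lower of 9435 tested. Gpx3 was at 28.5, 110, 1048, 868 and 772 CPM in members against 5.49, 72.4, 248, 187 and 154 CPM (log2 2.13 ± 0.15, adjusted p = 1.5e-14), with members above at 4, 5 and 6 wk. Rrad (2.46 ± 0.24), the FERM domain gene Frmd4b (2.31 ± 0.35), the cytokine signalling inhibitor gene Socs3 (2.02 ± 0.16) and the complement protease gene C1s1 (1.99 ± 0.24) were also higher. Mycl, Hsd3b1, Fst, Prlr and Nap1l5 were lower by -2.31 ± 0.26, -2.28 ± 0.25, -2.26 ± 0.24, -2.24 ± 0.32 and -2.24 ± 0.27. Antral genes were lower in 9 of 12 and higher in none by this edgeR test (median -1.56), or lower in 7 and higher in 1 of 13 in the 3 older libraries, and Amh was at -1.10 ± 0.22.

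Against 178 S100a6 Nupr1 Agt cells, 350 of 7252 genes were higher in members (4.83%) and 318 lower (4.38%), and 8.74% had a higher and 4.91% a lower CPM in all 5 libraries. That group held 1 cell at 2 wk and 2 at 3 wk, and the 3 older libraries gave 394 higher and 363 lower of 8487 genes. By the naming rule, Igfbp5 (2.30 ± 0.26), the bHLH-PAS factor gene Arnt2 (2.30 ± 0.28), C1s1 (2.30 ± 0.34), Sorbs2 (2.22 ± 0.22) and C1qtnf7 (2.17 ± 0.30) were highest, and Col6a2 (-2.38 ± 0.54), the sterol-regulated gene Tmem97 (-2.07 ± 0.40), Fndc5 (-1.72 ± 0.37), the apolipoprotein gene Apoa4 (-1.70 ± 0.21) and Vcan (-1.63 ± 0.37) lowest. That rule leaves out genes at 0 in both groups of a library, such as Lox, at 2.53 ± 0.32, and Inhba, at -3.46 ± 0.25. Cells with at least 2 of Lox, Adamts5 and Ghr had been taken out of this comparison group but not out of the members. The Lox value is therefore set in part by that choice and is not a test of Lox. Antral genes were lower in 9 of 12 and higher in 2 (median -1.88). For Apoa4 members were at 108, 44.8 and 50.1 CPM at 4, 5 and 6 wk against 242, 154 and 243 CPM. Glycolysis and hypoxia genes were lower in 12 of 17 and higher in 1 (median -0.76), and matrix genes were lower in 10 of 31 and higher in 2 (median -0.45), opposite in sign to the matrix median against the Lox Adamts5 Ghr cells (0.48, with 10 of 29 higher and 3 lower). Tagln was higher by 1.08 ± 0.20 but not called in the 3 older libraries (0.70 ± 0.21).

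Against 1888 Vpreb3 cells, 1133 of 8921 genes were higher in members (12.7%) and 987 lower (11.1%), and 12.1% had a higher and 13.3% a lower CPM in all 5 libraries. Of 10634 genes tested in the 3 older libraries, 1379 were higher and 1192 lower. By the same naming rule Galnt15 (3.78 ± 0.25), Pcdh9 (3.71 ± 0.20), Ogn (3.57 ± 0.20), Cald1 (3.35 ± 0.19) and Sorbs2 (3.25 ± 0.16) were highest in members. Mycl (-3.73 ± 0.24), Inhba (-3.53 ± 0.25), the replication gene Pclaf (-3.45 ± 0.33), Nap1l5 (-3.37 ± 0.22) and Fam81a (-3.28 ± 0.29) were lowest.

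Levels were also summed for cells just outside the rule, in groups ordered by the rule's own genes, for genes that differ in members. At 4 to 6 wk Cald1 was at 2474 CPM in members with 3 to 5 partner genes, 1888 CPM in members with 2, 1585 CPM in granulosa cells with Pamr1 and 1 partner, 1253 CPM in those with at least 2 partners and no Pamr1, and 452 CPM in all other granulosa cells, which include the 2 preceding groups. Gpx3 followed the same order at 974, 840, 694, 498 and 204 CPM. Fst ran the other way, at 41.7, 108, 160, 175 and 459 CPM, but Inhba broke the order, at 55.3 CPM in members with 3 to 5 partners and 3.04 CPM in those with 2, then 46.6, 132 and 526 CPM. These are pooled values with no test, and a cell with fewer UMIs of the defining genes is more easily left outside the rule.

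**Figure D5:**
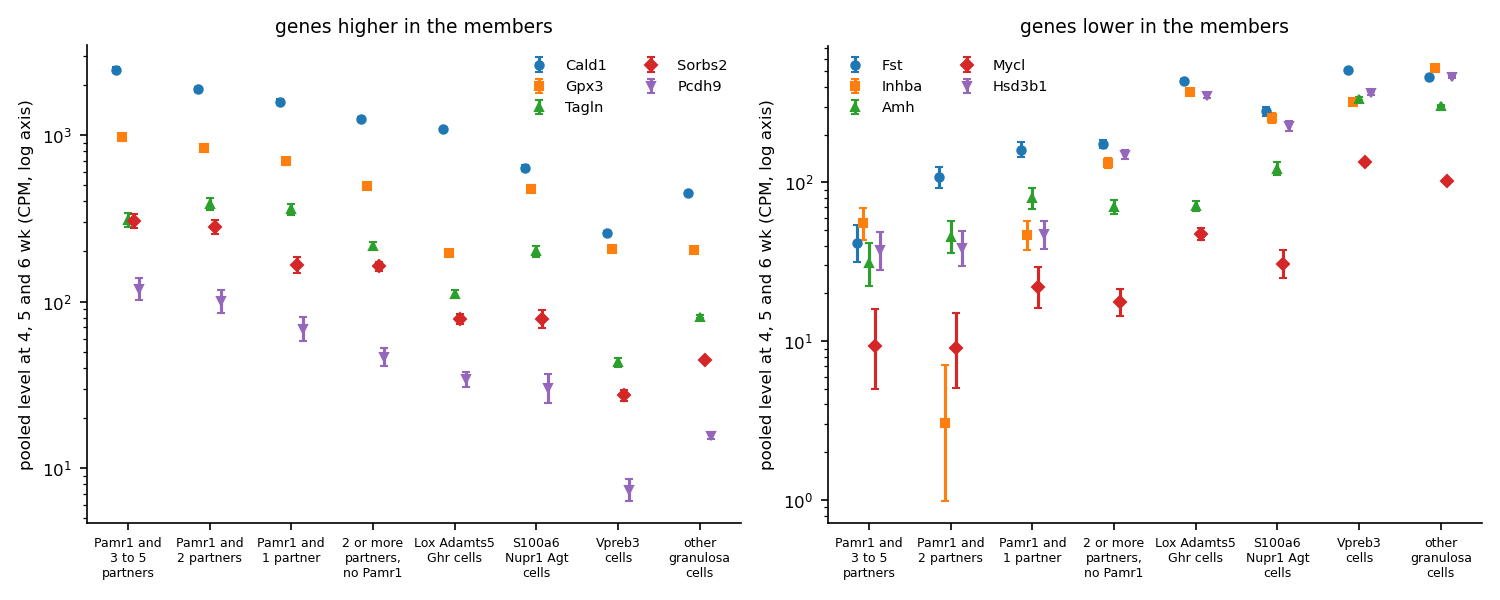
Pooled level at 4, 5 and 6 wk (CPM, log axis) of 5 genes higher (left) and 5 genes lower (right) in members, across 8 cell groups ordered from the core of the rule to all other granulosa cells, which contain the 5 groups between them and the members. Points are pooled values and error bars exact 95% Poisson intervals for counting error. Cald1 declines from 2474 to 1253 CPM over the first 4 groups, and Vpreb3 cells have the lowest value (257 CPM).

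Within the members, levels in the 3 older libraries differed by small ratios for most genes. Over 2352 genes with at least 200 member UMIs, the median absolute log2 ratio was 0.25 between 5 and 4 wk, 0.26 between 6 and 4 wk and 0.20 between 6 and 5 wk, against 0.20, 0.22 and 0.12 in other granulosa cells, which had many more UMIs. Ccnd2, a cyclin of granulosa proliferation, was at 164 CPM at 4 wk and at 76.6 and 45.2 CPM at 5 and 6 wk in members, 2.14 times the higher of the later values (95% interval 1.62 to 2.86), whereas in other granulosa cells it was at 446, 328 and 518 CPM, a ratio of 0.862. Cables1 was 2.81 times as high at 4 wk as in the higher of the later libraries, and 2.37 times in other granulosa cells. Csrp2 (476, 222 and 215 CPM) and Nupr1 (794, 409 and 327 CPM) were also highest at 4 wk.

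In the opposite direction Kitl, the ligand of the oocyte receptor KIT, was at 49.8, 212 and 154 CPM in members at 4, 5 and 6 wk and at 58.9, 144 and 112 CPM in others. Zfp36, an immediate-early gene for an mRNA decay factor, was at 49.8, 318 and 246 CPM against 35.3, 170 and 106 CPM. The largest such ratio belonged to AY036118, at 77.0, 599 and 660 CPM in members and 87.4, 509 and 485 CPM in others. The software version changed between the same libraries, and the 2 cannot be told apart. From 2 and 3 wk to 5 and 6 wk the highest ratios were those of Agt and Gpx3, 9.26 and 7.02, against 6.40 and 2.92 in other granulosa cells, but they rest on 2 and 6 member UMIs at 2 and 3 wk together.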

How the data were processed

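The authors deposited filtered Cell Ranger matrices of UMI counts per gene and cell, aligned to mm10. Per the labels, Cell Ranger 3.1.0 (2, 3 and 4 wk) or 6.0.1 (5 and 6 wk) and Seurat 4.1.0 were used. The deposited counts were taken as they were; no cell annotation was used. Members and all gene lists were chosen with earlier results of these data known. Counts were summed by library and cell group and tested with edgeR 4.0.16 (TMM, filterByExpr, quasi-likelihood, library as a block, Benjamini-Hochberg over all genes tested); rule genes were left out. Each SE of a log2 change is its absolute value divided by the square root of the quasi-likelihood F statistic. CPM is scaled to 1000000 UMIs of the group. Named genes were the 14 highest and 10 lowest called genes with 1 sign in 5 libraries and at least 30 CPM, up to 4 called genes of highest level in each of 31 lists, 5 a side in each other comparison, and genes ranked by age ratio; 1 gene that the rule selects is not reported here; others named, among them genes that were not called and marker or pathway genes read beside a result, and the ranking between 4 wk and 5 and 6 wk, were chosen after values were seen. The library pairs the groups, since members and comparison cells were drawn from the same library. Doublets were called with Scrublet in scanpy 1.11.5 and kept, with an alternative without them. On simulated counts the test called 48 of 50 genes changed by log2 2 and 36 of 46 at log2 -2. It called 14 of 50 at log2 1, 13 of 50 at log2 -1 and 6 of 12374 unchanged genes. Those counts were drawn with the same dispersion for every gene and library, and no members were picked by a rule. The calls therefore do not give the error rate of the real comparison. Cells are not replicates. The p-values come from 5 libraries that differ in age, judged against a spread that edgeR estimates with information shared across genes. They do not measure the spread of each gene over 5 libraries alone. Intervals are exact at 95% and cover counting error only. Alternatives were DESeq2 1.42.0, other size factors, no block, each library left out, matched depth, stricter or looser rules, and no filter on low counts.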

Additional observations from a re-analysis of the deposited data

Results flagged for a closer look

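Galnt15 in the 3 wk library lay far from the other libraries. Its log2 ratio of members over other granulosa cells was 5.65 there, against a median of 2.93 over the 5 libraries, and the gap took 0.749 of the whole range, above the critical value of 0.71 for 5 values. The 3 wk value rests on 3 member UMIs in 3 cells. Of 17 results checked in this way 1 was set apart, and chance gives about 1 in 20. Without the 2 and 3 wk libraries the change of Galnt15 was 2.72 ± 0.18.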

How the results depend on the processing

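Of 2006 values for 127 gene-by-comparison results, 1750 kept their direction and side of the threshold, 244 kept the direction only and 12 turned. The counts of genes higher and lower in members were 473 and 603 without the library as replicate block against other granulosa cells, 50 and 30 against Lox Adamts5 Ghr cells, 60 and 42 against S100a6 Nupr1 Agt cells, and 752 and 653 against Vpreb3 cells. By DESeq2 they were 554 and 443, 230 and 124, and 158 and 91 in the first 3 comparisons. Against other granulosa cells 727 genes were higher and 595 lower of 8202 tested with cells matched on UMIs, and 1216 higher and 596 lower of 13977 with no limit on Ube2c, Dcn and Rgs5. Leaving out each library in turn gave 658 to 974 genes higher and 775 to 1134 lower against other granulosa cells, 204 to 374 and 115 to 279 against Lox Adamts5 Ghr cells (204 and 115 without 5 wk, 211 and 142 without 6 wk), 82 to 471 and 58 to 312 against S100a6 Nupr1 Agt cells (82 and 58 without 4 wk, 103 and 67 without 5 wk, 168 and 99 without 6 wk), and 805 to 1344 and 858 to 1279 against Vpreb3 cells; these fits rest on 1 library fewer. The ratio of member shares, 18.1, was 59.1 with at least 3 partner genes and 2.38 with no limit on the 3 excluded genes. It was 75.9 without cells holding 1 of 11 markers of other types, a setting added after seeing the data. The ratios of 59.1 and 75.9 each rest on 1 member in the 2 and 3 wk libraries together. Their counting intervals ran from 10.4 to 2360 and from 13.4 to 3017, and that of 18.1 from 8.64 to 45.7. These intervals overlap, so neither ratio shows a larger step than 18.1.

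The direction turned in the following cases. With no limit on Ube2c, Dcn and Rgs5, Akap12 was at 0.32, Cd52 at 1.15, Fcer1g at 0.55 and Tyrobp at 0.0849 (log2). With at least 2 Pamr1 UMIs, which left no member at 2 or 3 wk, Col1a1 was at -2.33, Col1a2 at -2.54, Ednrb at -0.95 and Mfap4 at -1.87. With at least 3 partner genes Col1a1 was at -0.94, Col1a2 at -0.98 and Ednrb at -0.37, and Ednrb was at -0.0186 without cells holding other markers. The Igfbp5 ratio of later libraries over 4 wk in members, 2.62, was 0.516 after thinning. The causes were not tested. With 3 and 4 cells, 3 UMIs of a gene corresponded to 82.5 and 42.7 CPM in the 3 and 2 wk members. For a gene at 0 UMIs in them, the counting interval reached up to 101 and 52.5 CPM. Small differences could therefore be missed in these members.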
